A study of Equus caballus with 12 samples.

Results

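The genes described here are the transcription factor genes of families with a common symbol (HOX, FOX, SOX, KLF, TBX, ETS, RUNX, ZNF and others) that the authors listed as changed when equine mesenchymal stem cells (MSCs) were licensed with 2 cytokines. They were taken by a pattern of gene symbols from the authors' deposited table of 1341 changed genes, and 33 genes matched. MSCs are adherent stromal cells, here grown from bone marrow, that can form bone, cartilage and fat. Licensed cultures received 2 ng/ml recombinant human IL-1β, an inflammatory cytokine, together with 1 ng/ml recombinant human TGF-β2, a growth factor known for driving matrix synthesis, for 72 hours. Naive cultures of the same 6 horses were kept in standard medium alone for the same time, so each group held 6 libraries of polyA-selected RNA and the groups were paired by horse. All cultures were primary cells in low glucose DMEM with 10% fetal bovine serum, and the human cytokines acted on horse cells.

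Transcription factors bind short DNA motifs and raise or lower the transcription of nearby genes, and relatives that share a DNA-binding domain often recognise like motifs. In mesenchymal cells SOX9 and RUNX factors are known for cartilage and bone formation, TWIST factors for holding back differentiation, and HOX, TBX, MEOX and LHX factors for the position and identity of embryonic tissue. AP-1 factors such as FOS, the NFAT factors and the orphan receptor NR4A3 are known as factors that respond quickly to signals from outside the cell.

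Values are normalized counts, which are reads divided by 1 size factor per library. They are not divided by gene length, so levels are not compared between genes. Listed genes together held 2718393 to 3424328 reads per licensed library and 1672419 to 1844648 reads per naive library, and the depth of whole libraries is unknown. Few reads lie behind 9 of the 33 genes: KLF15, ELF5, ZNF653, LHX2, TFAP2A, NR4A3, LHX6, MEOX1 and TCF15 averaged under 50 normalized counts in both groups and had at most 148 reads in any library. The table holds changed genes only, so the identity of the cells could not be checked in full. Of 12 MSC surface markers, THY1 and MCAM were in the table, and both were lower in licensed cells, THY1 at 298 to 4743 normalized counts in licensed libraries and 4625 to 31120 in naive libraries. None of 11 haematopoietic and none of 7 endothelial marker genes was in the table. The part of cell composition in the results was not tested, and in bulk RNA fewer cells of a type and less RNA per cell cannot be told apart.

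In the authors' deposited table, 21 of the 33 genes stood as higher in licensed cells and 12 as lower. The whole table divided evenly, with 50% of its genes up and 50% down. The table itself chose the genes, since it holds nothing under a 2-fold change or above an adjusted p of 0.05, so these counts and every difference below are descriptions and not independent evidence of a change. The genes that changed least were TEAD2, with a deposited log2 fold change of 1.01, and FOS, with -1.02. Family members absent from the table are not analysed here. The median deposited log2 fold change was 1.39 among the 21 genes listed as higher and -1.20 among the 12 listed as lower, against 1.61 and -1.48 over all listed genes of the same direction. A change of 4-fold or more was listed for 5 of the 33 genes, against 30.1% of the whole table: GATA6, TCF15, MEOX1 and LHX6 were higher and EBF2 was lower.

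All 1341 genes were fitted again with limma on the log2 scale, without pairing by horse. By that fit 21 of the 33 genes rose and 10 fell by over 2-fold with an adjusted p under 0.05. Of all listed genes, 48.4% were higher and 46.8% lower. Unless stated, limma errors and adjusted p-values below come from this unpaired fit, so differences in level between horses enter them. ELF5 and HOXC10 made up the other 2 of the 33 genes, and both missed the 2-fold bound narrowly with an adjusted p under 0.05. P-values were adjusted over the listed genes only, all of which the authors had already called. A low adjusted p was therefore largely fixed by that selection, here and below. Rescaling the libraries with TMM factors over the listed genes moved the median log2 difference of all listed genes by -0.24, and the split of the 33 genes then was 16 higher and 12 lower, with no gene changing direction. Under that scaling 35.3% of the whole table was higher and 49.2% lower. TMM takes most genes as unchanged, but the table holds changed genes only, so its factors can absorb part of the difference between groups. Values after TMM rescaling show how far a result depends on scaling, and are not a better estimate. Lowest licensed values lay above the highest naive values for 15 of the 33 genes, against 32.4% of the whole table. Complete separation in the other direction held for 5 of the 33 genes, against 26.8% of the whole table. Differences had the same sign in all 6 horses for 31 of the 33 genes, a share close to the 93.8% of all listed genes. KLF15 and ELF5 were the exceptions, and in both the horse that moved the other way was horse 1.

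**Figure D1:**
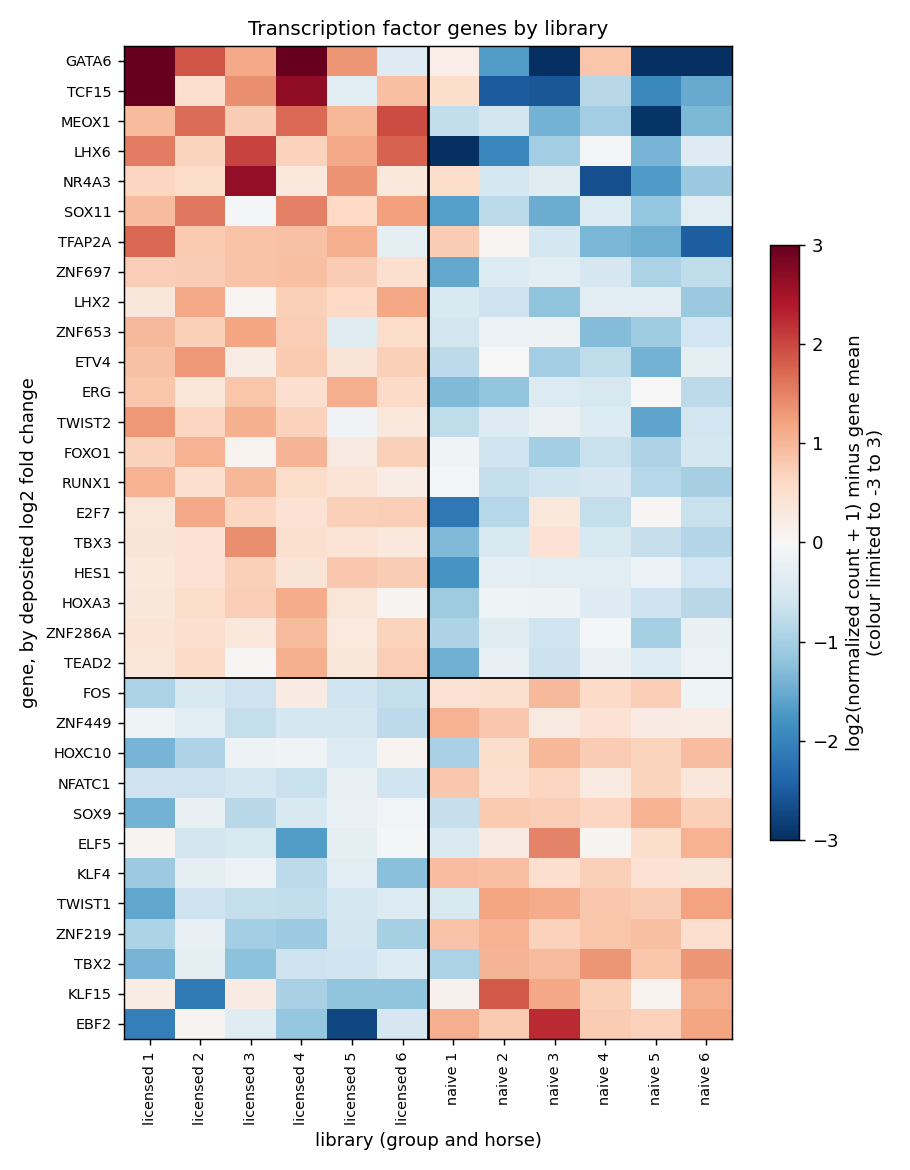
Each row is 1 of the 33 genes, ordered by deposited log2 fold change with the largest rise on top, and each column is 1 library, licensed on the left and naive on the right, numbered by horse. Colour gives log2(normalized count + 1) minus the mean of the gene over the 12 libraries, and the black lines part the groups and the 21 higher from the 12 lower genes.

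**Figure D2:**
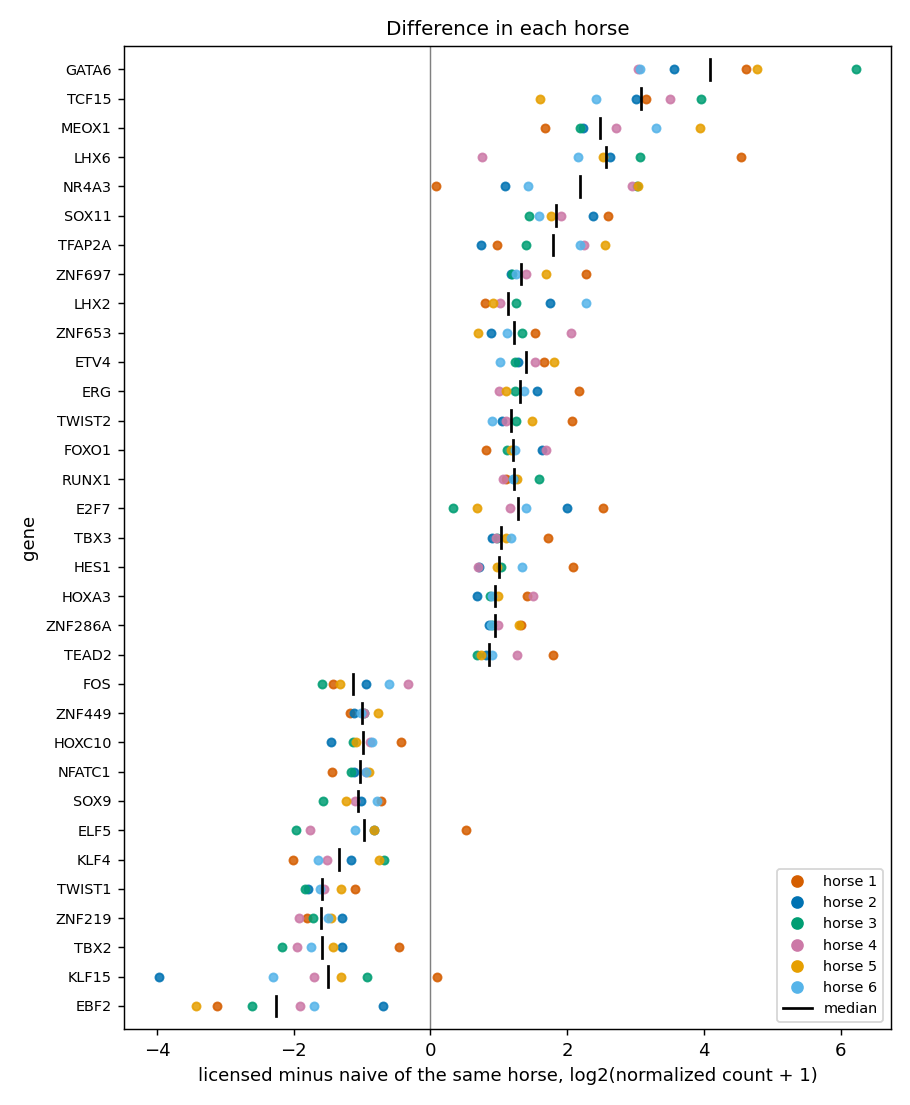
Points give the licensed minus naive difference in log2(normalized count + 1) for each of the 6 horses, and black bars give the median over horses. All points of a gene lie on 1 side of 0 for 31 of 33 genes, and the points of KLF15 and ELF5 on the other side belong to horse 1.

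The 33 genes came from 21 families. Against lists of 33 families made from human gene names, 20 had at least 1 listed gene, and the ZNF genes, for which no list was made, had 5. No gene was listed from 13 families with 76 genes in all, which included the STAT and IRF factors of cytokine and interferon signalling, the EGR, ATF and MAF factors, and the NFI, MEIS, IRX, MSX, PITX, PRDM and ZFHX families. This does not show that those genes were unchanged, because genes that changed less than 2-fold, and the 208 listed genes with an Ensembl ID but no symbol, could not be assigned. In 8 families 2 or more genes were listed, and in 6 of these (TWIST, TBX, SOX, HOX, ETS and ZNF) the listed genes went in both directions. KLF and LHX were the families whose listed genes went 1 way. Because 50% of the whole table was up and 50% down, unrelated listed genes would often go both ways too. Whether relatives went in opposite directions more often than other listed genes was not tested.

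**Figure D3:**
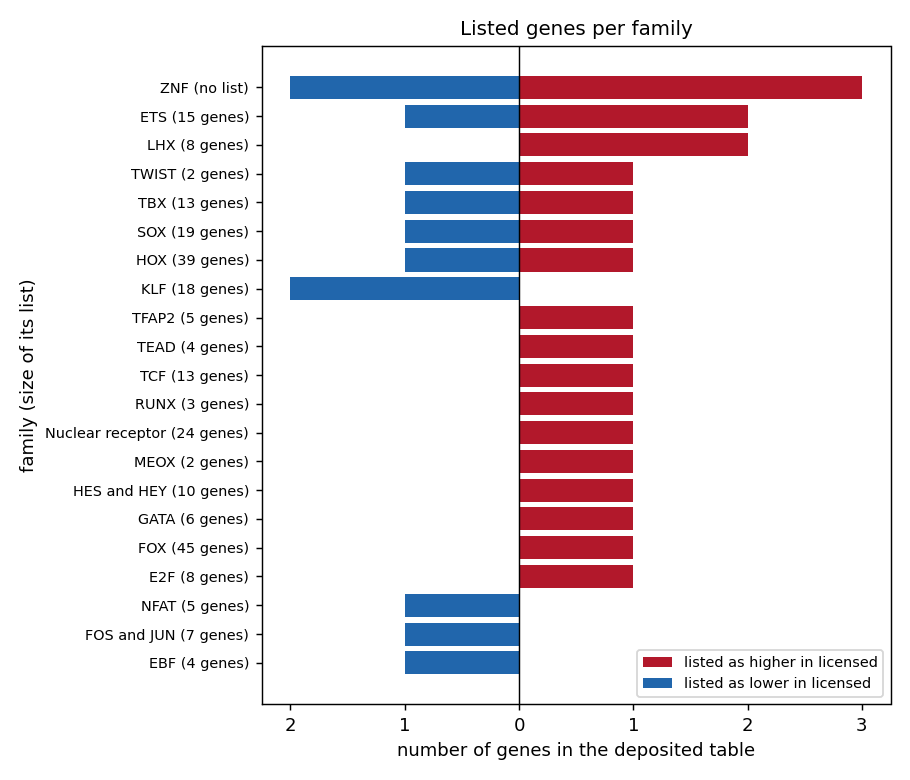
Bars count the genes of each family in the deposited table, to the right for genes listed as higher and to the left for genes listed as lower in licensed cells, with the size of each family's list of gene names in brackets. TWIST, TBX, SOX and HOX each had 1 gene on either side, while LHX had 2 on the right and KLF 2 on the left.

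Among the FOS and JUN, NFAT and NR-named nuclear receptor genes, FOS and NFATC1 fell and NR4A3 rose. Nuclear receptors without an NR symbol lay outside the name pattern and went in both directions. VDR and RORA were listed as higher (deposited log2 fold changes of 1.55 and 1.17), and RXRA and THRB as lower (-1.065 and -1.79). FOS (ENSECAG00000014260), a subunit of the dimeric factor AP-1, was the only listed gene of the 7 FOS and JUN genes. FOS lay between 1158 and 2670 normalized counts in licensed libraries (median 1481) and between 2076 and 4417 in naive libraries (median 3241). It was lower in 6 of 6 horses, but the groups overlapped, because the licensed library of horse 4 exceeded the naive library of horse 6. The limma log2 difference was -1.04 ± 0.22 (SE, adjusted p = 6.19e-04), and without horse 1, 3 or 5 it was -0.96, -0.93 or -0.98, just under a 2-fold change. NFATC1 (ENSECAG00000019813), a factor that calcineurin brings into the nucleus, was the only listed gene of the 5 NFAT genes. It lay between 519 and 708 normalized counts in licensed libraries (median 543) and between 998 and 1460 in naive libraries (median 1230), with no overlap, and fell by 1.08 ± 0.14 on the log2 scale (SE, limma adjusted p = 1.63e-05). NR4A3 (ENSECAG00000011929), an orphan nuclear receptor of the immediate early response, rose by 1.93 ± 0.54 on the log2 scale (limma adjusted p = 0.00437). Its licensed libraries held 23.8 to 125 normalized counts (median 29.3) and its naive libraries 2.22 to 28.6 (median 10.6). Horse 1 hardly differed between cultures in NR4A3, with 30.3 normalized counts in licensed and 28.6 in naive cells, and the licensed library of horse 3 was far above the others.

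Cofactors of these families were taken from a list of 49 genes, of which 5 were listed as higher and 4 as lower, and limma called the same numbers. RCAN1, a feedback inhibitor of calcineurin and so of the NFAT factors, averaged 7421 ± 3697 normalized counts in licensed and 2608 ± 1416 in naive libraries (SD, n = 6 each). NAB1, a corepressor of EGR factors, had 1522 to 2298 normalized counts in licensed and 332 to 626 in naive libraries, with no overlap, and SKIL, a repressor of SMAD proteins, had 1101 to 1381 in licensed and 272 to 507 in naive libraries. VGLL2, a partner of TEAD factors, was higher in 6 of 6 horses with a limma log2 difference of 2.91 ± 0.48 (SE, adjusted p = 1.01e-04). LDB2, which binds LIM domain proteins such as the LHX factors, and CITED2, a coactivator partner of TFAP2 factors, fell by 2.11 ± 0.34 and 1.77 ± 0.19 on the log2 scale (SE, limma adjusted p = 9.07e-05 and 3.93e-06). HOPX, a homeodomain protein that does not bind DNA, had 3.67 to 16.4 normalized counts in licensed and 3.10 to 69.6 in naive libraries, and was lower in 5 of 6 horses. The LIM protein gene FHL1 was also listed as lower, and MYOCD, a partner of the serum response factor, as higher.

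Of the 15 ETS genes on the list of names, which is not the whole family, ETV4 and ERG were listed as higher and ELF5 as lower. The groups of ETV4 and of ERG did not overlap. ETV4 (ENSECAG00000015611), an ETS factor known as a target and effector of fibroblast growth factor signalling, lay between 2313 and 4857 normalized counts in licensed libraries (median 3321) and between 738 and 2004 in naive libraries (median 1166). Its limma log2 difference was 1.42 ± 0.25 (SE, adjusted p = 1.43e-04). ERG (ENSECAG00000010667), an ETS factor of endothelial cells and of joint cartilage, had 188 to 313 normalized counts in licensed libraries (median 239) and 57.2 to 146 in naive libraries (median 93.5). No gene of the endothelial list was in the table, which holds changed genes only, so whether those genes were expressed is unknown. ELF5 (ENSECAG00000023321), an ETS factor of mammary and trophoblast cells, had 2.56 to 11.1 normalized counts in licensed and 7.41 to 31.0 in naive libraries, that is 3 to 11 and 7 to 32 reads, with overlap. ELF5 was lower in 5 of 6 horses, and its limma log2 difference was -0.99 ± 0.40 (SE, adjusted p = 0.0291). Without horse 1 it was -1.30 (adjusted p = 0.0094), and without any other single horse it was -1.03 to -0.80 with an adjusted p of 0.0555 to 0.0924, above 0.05 each time.

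The TEAD, HES and HEY, FOX and E2F families had 1 listed gene each, and in TEAD2, HES1, FOXO1 and E2F7 the licensed libraries all lay above the naive ones. TEAD2 (ENSECAG00000018010), a DNA-binding partner of the Hippo pathway coactivators, lay between 1261 and 2597 normalized counts in licensed libraries (median 1703) and between 455 and 1095 in naive libraries (median 986). The limma log2 difference was 1.03 ± 0.24 (SE, adjusted p = 0.00113). It was 0.88 without horse 1, 0.99 without horse 4 and 0.79 after TMM rescaling. HES1 (ENSECAG00000026945), a repressor that Notch signalling induces, had 702 to 987 normalized counts in licensed libraries (median 836) and 165 to 500 in naive libraries (median 451), and its log2 difference of 1.14 was 0.95 without horse 1 and 0.90 after TMM rescaling. FOXO1 (ENSECAG00000002212), a forkhead factor that insulin signalling keeps out of the nucleus, was the only listed gene of the 45 FOX genes, with 1058 to 2005 normalized counts in licensed libraries (median 1586) and 484 to 904 in naive libraries (median 627). E2F7 (ENSECAG00000017963), an E2F factor that represses cell cycle genes, had 83.8 to 144 normalized counts in licensed libraries (median 105) and 13.8 to 81.4 in naive libraries (median 39.6). Horse 3 came close to no difference in E2F7, with 102 normalized counts in licensed and 81.4 in naive cells.

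RUNX1 and SOX11 rose and SOX9 fell. RUNX1 (ENSECAG00000003462), a factor of blood formation that also acts in cartilage, was the only listed gene of the 3 RUNX genes. RUNX1 lay between 1756 and 3103 normalized counts in licensed libraries (median 2170) and between 757 and 1441 in naive libraries (median 958), with no overlap. Its limma log2 difference was 1.24 ± 0.19 (SE, adjusted p = 5.93e-05), and single horses lay between 1.07 and 1.59. SOX9 (ENSECAG00000022037), the main factor of cartilage cell fate, lay between 113 and 289 normalized counts in licensed libraries (median 242) and between 187 and 630 in naive libraries (median 503). SOX9 was lower in 6 of 6 horses, with a limma log2 difference of -1.07 ± 0.31 (SE, adjusted p = 0.00525) that was -0.97 without horse 3. Overlap of the SOX9 groups came from horse 1, whose naive library was far below the other naive libraries. SOX11 (ENSECAG00000037831), a SOX factor of embryonic neural and mesenchymal progenitors, lay between 409 and 1261 normalized counts in licensed libraries (median 909) and between 134 and 333 in naive libraries (median 214), with no overlap and a log2 difference of 1.95 ± 0.31 (SE, limma adjusted p = 8.27e-05).

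TWIST1 (ENSECAG00000033207) and TWIST2 (ENSECAG00000038446), close bHLH relatives that hold back osteoblast differentiation in mouse, went in opposite directions. TWIST1 lay between 376 and 832 normalized counts in licensed libraries (median 703) and between 807 and 2556 in naive libraries (median 2186), and TWIST2 between 128 and 338 in licensed libraries (median 218) and between 44.7 and 119 in naive libraries (median 96.5). The limma log2 differences were -1.53 ± 0.28 for TWIST1 and 1.31 ± 0.29 for TWIST2 (SE, adjusted p = 2.48e-04 and 8.21e-04). Horse 1 was low in both groups of TWIST1, with 376 normalized counts in licensed and 807 in naive cells, and its naive library alone made the groups overlap. TBX2 (ENSECAG00000024480) and TBX3 (ENSECAG00000012861), T-box repressors of limb and heart development, were opposed in the same manner. TBX2 lay between 307 and 676 normalized counts in licensed libraries (median 533) and between 421 and 2048 in naive libraries (median 1610), with a limma log2 difference of -1.51 ± 0.36 (SE, adjusted p = 0.00150). TBX3 lay between 497 and 1064 normalized counts in licensed libraries (median 537) and between 159 and 544 in naive libraries (median 267), with a log2 difference of 1.14 that was 0.90 after TMM rescaling. In TBX3 both libraries of horse 3 were the highest of their group, and its naive library made the groups overlap.

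Of the 6 families with exactly 2 listed genes, 4 had 1 gene higher and 1 lower: TWIST, TBX, SOX and HOX. These 4 pairs were set side by side after their values had been seen, and the even division of the table makes opposed pairs common. Since the table holds no change under 2-fold, the ratio of an opposed pair had to shift. The sign and much of the size of that shift were fixed by the choice of pairs. The difference between the 2 genes of a pair, taken within a library, does not depend on how libraries were scaled, apart from the added count of 1. Within a horse, the log2 ratio of TWIST2 to TWIST1 was higher in licensed than in naive cells by 2.85 ± 0.25 (mean and SD, n = 6 horses). Single horses lay between 2.52 and 3.18, with horse 1 the highest. The ratio of TBX3 to TBX2 was 2.65 ± 0.41 higher, with single horses between 2.18 and 3.14. For SOX11 to SOX9 it was 3.01 ± 0.36, with single horses between 2.37 and 3.39. HOXA3 to HOXC10 gave 2.03 ± 0.22, with single horses between 1.76 and 2.39.

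**Figure D4:**
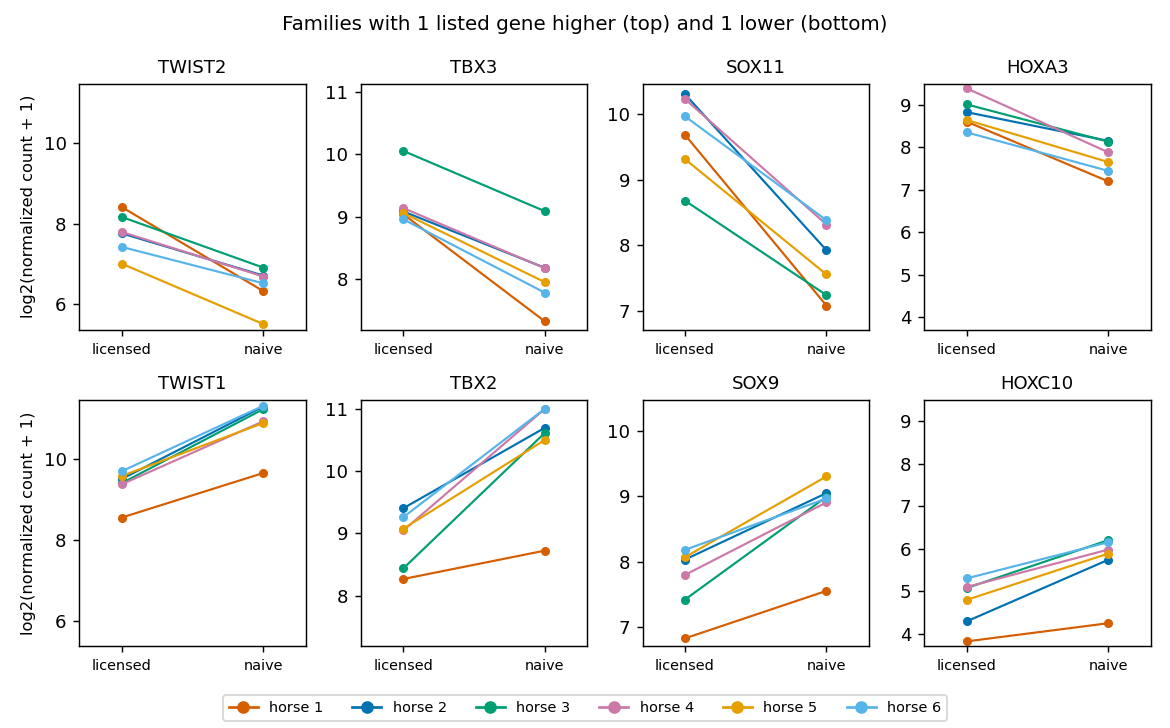
Lines join the licensed (left) and naive (right) library of each of the 6 horses, in log2(normalized count + 1), for the gene that was higher (top) and the gene that was lower (bottom) in each family with 2 listed genes in opposite directions. The vertical scale is shared within a family and differs between families. Horse 1 is the lowest line in the lower panels of TWIST1, TBX2, SOX9 and HOXC10.

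The HOX genes, which mark position along the body axis, had 2 listed genes of 39. HOXA3 (ENSECAG00000022055) lay between 326 and 670 normalized counts in licensed libraries (median 427) and between 146 and 284 in naive libraries (median 218), with no overlap. The limma log2 difference of HOXA3 was 1.06 ± 0.22 (SE, adjusted p = 6.55e-04), with 0.99 without horse 1, 0.97 without horse 4 and 0.82 after TMM rescaling. HOXC10 (ENSECAG00000034365) had 13.1 to 38.5 normalized counts in licensed and 18.0 to 72.7 in naive libraries, and a log2 difference of -0.97 ± 0.37 (SE, limma adjusted p = 0.0230). HOXC10 was lower in 6 of 6 horses, and without horse 1, whose naive library was the low one, the log2 difference was -1.08. Without horse 2, 3 or 5 the adjusted p of the unpaired limma fit was above 0.05 (0.0711, 0.051 and 0.0589), with log2 differences of -0.88, -0.94 and -0.95. With the horse as a block and all 6 horses kept, the limma adjusted p was 9.25e-04. The log2 difference stayed at -0.97, under a 2-fold change. HOX clusters hold overlapping transcripts on both strands, and the use of strand in counting is not given in the sources used here, so reads of overlapping genes cannot be told apart.

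EBF2, KLF4 and KLF15 were lower in licensed cells. EBF2 (ENSECAG00000014179), which marks brown fat precursors in mouse, had 2.77 to 25.4 normalized counts in licensed libraries (median 13.4) and 39.5 to 117 in naive libraries (median 46.8), with no overlap. It had the largest deposited fall of the 33 genes, a log2 fold change of -2.15, and a limma log2 difference of -2.24 ± 0.47 (SE, adjusted p = 6.54e-04). KLF4 (ENSECAG00000010613), a zinc finger factor known from the reprogramming of somatic cells, lay between 298 and 630 normalized counts in licensed libraries (median 491) and between 937 and 1346 in naive libraries (median 1091). The KLF4 groups did not overlap, and the fall was 1.29 ± 0.21 on the log2 scale (SE, limma adjusted p = 9.58e-05). KLF15 (ENSECAG00000021092), a glucocorticoid-responsive factor of fat and muscle metabolism, had 0.978 to 9.20 normalized counts in licensed libraries and 8.31 to 29.98 in naive libraries, that is 1 to 9 and 8 to 28 reads. It was lower in 5 of 6 horses, and horse 1 had 9.09 normalized counts in licensed and 8.47 in naive cells. No other gene of the 18 KLF genes or the 4 EBF genes was listed.

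GATA6, TCF15, MEOX1 and LHX6 had the 4 largest deposited rises of the 33 genes. GATA6 (ENSECAG00000023279), a zinc finger factor of endoderm and heart, had 960, 124, 73.6, 491, 83.2 and 24.7 normalized counts in the licensed libraries of horses 1 to 6, and 38.1, 9.64, 0, 58.9, 2.08 and 2.07 in their naive libraries. The deposited log2 fold change was 3.99, and unpaired limma gave 4.21 ± 1.07 (SE, adjusted p = 0.00234). With the horse as a block the SE was 0.41 (limma adjusted p = 6.39e-06). GATA6 was higher in 6 of 6 horses by 3.04 to 6.22 on the log2 scale, but the horses differed so much that the groups overlapped: the naive libraries of horses 1 and 4 were above the licensed library of horse 6. TCF15 (ENSECAG00000002411), a bHLH factor of the forming somites, had 149, 15.7, 29.7, 73.4, 8.32 and 21.1 normalized counts in the licensed libraries of horses 1 to 6, and 15.9, 1.07, 0.969, 5.55, 2.08 and 3.10 in their naive libraries. Horses 1 and 4 held the 2 highest libraries of either gene in licensed and in naive cells alike. TCF15 was higher in 6 of 6 horses, with a limma log2 difference of 2.94 ± 0.70 (SE, adjusted p = 0.00150).

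MEOX1 (ENSECAG00000013525), a homeodomain factor of the somites, had 25.6 to 59.6 normalized counts in licensed libraries (median 39.7) and 1.04 to 9.64 in naive libraries (median 5.91), that is 25 to 65 and 1 to 9 reads. Its groups did not overlap and its limma log2 difference was 2.68 ± 0.41 (SE, adjusted p = 5.23e-05). LHX6 (ENSECAG00000024502), a LIM homeodomain factor of forebrain interneurons and of the facial skeleton, had 11.7 to 31.7 normalized counts in licensed libraries and 0 to 6.67 in naive libraries, with no overlap. LHX2 (ENSECAG00000009405), a LIM homeodomain factor of eye, limb and hair follicle development, had 24.5 to 54.1 normalized counts in licensed libraries and 9.69 to 18.9 in naive libraries, with no overlap and a log2 difference of 1.34 ± 0.28 (SE, limma adjusted p = 6.73e-04). TFAP2A (ENSECAG00000017468), a factor of neural crest and epidermis, had 8.25 to 36.4 normalized counts in licensed libraries and 1.03 to 18.0 in naive libraries, overlapping between groups but higher in 6 of 6 horses.

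**Figure D5:**
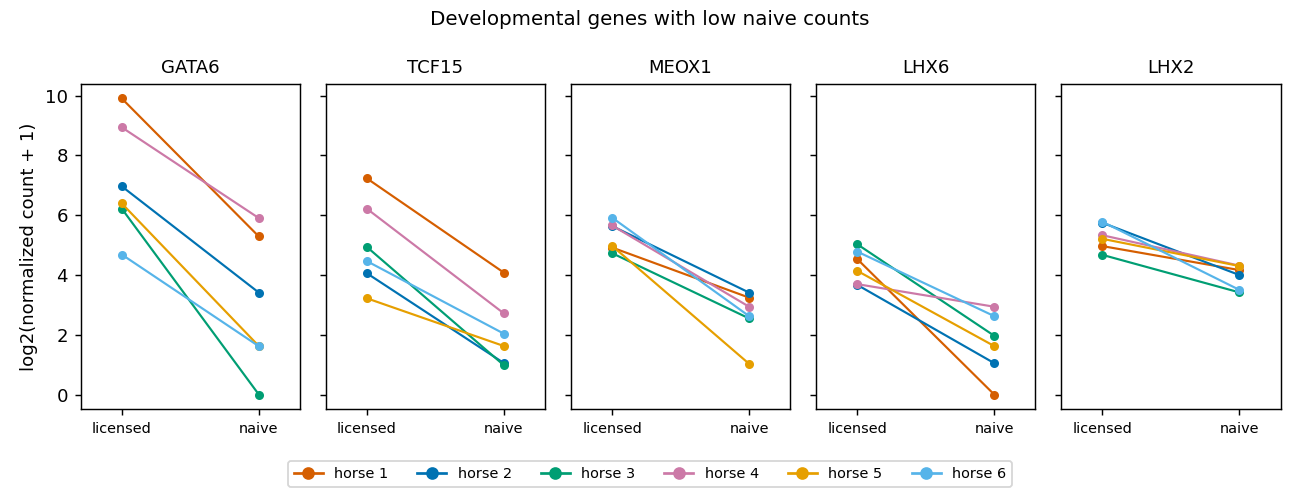
Lines join the licensed (left) and naive (right) library of each horse in log2(normalized count + 1) for GATA6, TCF15, MEOX1, LHX6 and LHX2, on a shared vertical scale. Horses 1 and 4 are the upper 2 lines of GATA6 and TCF15 in both groups, but not of the other 3 genes.

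C2H2 zinc finger genes with ZNF symbols, 5 in number, completed the set. ZNF219 (ENSECAG00000013524), a partner of SOX9 in mouse cartilage cells, lay between 121 and 220 normalized counts in licensed libraries (median 133) and between 373 and 542 in naive libraries (median 470). ZNF219 did not overlap between groups, and it fell by 1.62 ± 0.19 on the log2 scale (SE, limma adjusted p = 5.78e-06). ZNF697 (ENSECAG00000031539) lay between 239 and 319 normalized counts in licensed libraries (median 290) and between 58.2 and 134 in naive libraries (median 110), and rose by 1.498 ± 0.213 on the log2 scale (SE, limma adjusted p = 3.13e-05), again with no overlap. The log2 difference was 1.04 for ZNF286A (0.99 without horse 1 or 5 and 0.81 after TMM rescaling), 1.27 for ZNF653, which had 8 to 23 reads in licensed and 3 to 9 in naive libraries, and -1.005 for ZNF449 (-0.97 without horse 1 and -0.98 without horse 2).

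The naive library of horse 1 was the lowest of the 6 naive libraries for 14 of the 33 genes (42.4%) and the highest for 8 (24.2%), against 34.5% and 26.7% of the whole table, where it was also the library most often at either end. Of the 14 genes lowest there, 9 were listed as higher, among them HES1, TEAD2, E2F7 and SOX11, and 5 as lower, among them TBX2, TWIST1, SOX9 and HOXC10. The differences of single horses moved with this in some of the genes: HES1 was 2.08 higher in horse 1 and 0.70 to 1.33 higher in the other horses, and TBX2 was 0.46 lower in horse 1 and 1.29 to 2.18 lower in the other horses, on the log2 scale. ELF5, another of the 5, was 0.53 higher in horse 1, and HOXA3, another of the 9, was 1.505 higher in horse 4 and 1.406 higher in horse 1. Without horse 1, limma called 17 of the 33 genes higher and 10 lower, against 44.7% and 46.8% of the whole table. The differences of the other 5 horses had the same sign in 33 of 33 genes, against 96.3% of the whole table.

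Other transcription factors, from a list of 217 genes outside these name families, numbered 32 in the table. Of these 15 were listed as higher and 17 as lower, near the 50% and 50% of the whole table. Limma called 15 higher and 15 lower, against 48.4% and 46.8% of the whole table. The 5 with the largest deposited change were CEBPA, PAX6, NFE2, CEBPD and MYCL. CEBPA, a factor of fat and myeloid differentiation, had 41.9 to 264 normalized counts in licensed and 881 to 1794 in naive libraries, and NFE2, a factor of red blood cells and platelets, 1.01 to 5.12 in licensed and 18.6 to 34.4 in naive libraries. CEBPD, an acute phase relative of CEBPA, had 577 to 1310 normalized counts in licensed and 66.7 to 231 in naive libraries. PAX6, an eye and neural factor, had 6.85 to 49.5 normalized counts in licensed and 0 to 6.20 in naive libraries, and MYCL, of the MYC family, 119 to 634 in licensed and 36.4 to 80.5 in naive libraries. In none of these 5 genes did the groups overlap, but they were chosen for their large changes. Over the whole table the groups did not overlap in 32.4% of genes with licensed higher and 26.8% with licensed lower.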

How the data were processed

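The submitters' processing notes name Trimmomatic 0.36, STAR 2.5.2b, Subread 1.5.2, featureCounts and DESeq2. No build, annotation or strand setting is given in the sources used here. The deposited table holds for each gene the authors' p-value, adjusted p and log2 fold change and, per library, a signal that is read counts divided by a size factor. Dividing by the smallest step of a library returned whole reads for 100% of its values (tolerance 0.01 reads) (in licensed cells of horse 1 the step lies close to 1). Here limma 3.58.1 (R 4.3.3, trend and robust) was fitted to log2(normalized count + 1) of all 1341 genes of 12 libraries, unpaired, with p-values adjusted by Benjamini-Hochberg. The fit was tested on simulated counts in which most genes were unchanged and horses did not differ. That test does not cover a table of changed genes with paired horses. Differences of genes with low counts are understated on this scale. Same-horse libraries deviated together from their group means (r = 0.48 to 0.63 across genes, against at most 0.14 between different horses), so horses pair the samples. Alternatives were edgeR 4.0.16 and DESeq2 1.42.0 on the recovered reads, other pseudocounts, a filter on low values, TMM rescaling, a block for the horse and leaving out each horse. Named genes were the 6 largest rises and falls with a mean of 50 in the higher group, the leading genes of families with 2 or more listed genes, all genes of small signalling families, genes whose horses disagreed and the 5 largest changes of the other lists, and the remaining genes were added to account for each. The genes and lists were chosen with earlier results of these data known. Each horse gave 1 culture per condition.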

Additional observations from a re-analysis of the deposited data

Results flagged for a closer look

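Among the 66 groups of 6 libraries (33 genes in each condition), 13 held a library far from the other 5. Distance was judged by Dixon's ratio, the gap to the nearest library over the range of the 6, on normalized counts. Which groups would stand out on the log2 scale was not tested. Such a test singles out about 1 in 20 independent, normally distributed groups by chance. The 66 groups share the same libraries, so 13 of 66 cannot be set against that rate. The naive library of horse 1 accounted for 6 of the 13 groups. It was low for TBX2 (421 normalized counts, next lowest 1447), TWIST1 (807, next 1902), SOX9 (187, next 479), HOXC10 (18.0, next 52.5) and HES1 (165, next 375), and high for TCF15 (15.9, next highest 5.55). The licensed library of horse 1 was low for TWIST1 (376, next 665). Horse 3 was high for TBX3 in licensed cells (1064, next 563) and in naive cells (544, next 289), for NR4A3 in licensed cells (125, next 49.9) and for EBF2 in naive cells (117, next 55.8). The licensed library of horse 4 was high for FOS (2670, next 1634), and that of horse 5 for NFATC1 (708, next 578). What sets these libraries apart was not tested.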

How the results depend on the processing

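No gene of the 33 changed direction under any alternative, and no count of higher or lower genes moved by more than 1.5 times. Counts among the 33 genes ranged from 16 to 21 higher and from 8 to 12 lower over all alternatives. Those of all 1341 listed genes ranged from 473 to 670 higher and from 578 to 671 lower. Leaving out each horse gave 17 to 21 higher and 8 to 10 lower genes of the 33, against 599 to 623 and 578 to 627 of all listed genes. It gave 31 to 33 genes of 1 sign in all horses kept. With the horse as a replicate block, 21 genes were higher and 10 lower, against 655 and 641 of all listed genes. No call of the 33 changed with the block (paired analysis). Every lost call was lost at the 2-fold bound, with the adjusted p still under 0.05, for 6 genes without horse 1 and 5 genes after TMM rescaling, and ELF5 and HOXC10 passed it with edgeR and DESeq2 on recovered reads. Of all 1341 listed genes, edgeR called 669 higher and 671 lower and DESeq2 670 and 671, against 649 and 627 with limma. The DESeq2 refit returned the deposited log2 fold changes, with 0 genes differing by over 0.01. It therefore repeats the authors' selection and is no separate support for ELF5, HOXC10 or any other gene. With a pseudocount of 5, ZNF449 and ZNF653 fell under the 2-fold bound (-0.98 and 0.92). edgeR on the reads of horses 2 to 6, chosen after seeing the data, gave 18 higher and 10 lower, against 618 and 639 of all listed genes. The depth of whole libraries is unknown, and 9 genes rest on few reads. Genes outside the table are not analysed here.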
